A study of Mus musculus with 2 samples.

Results

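The cells described here were hematopoietic progenitors that carried transcripts of the start of S phase and little of the granule programme of the neutrophil line. They were taken from a droplet-based single cell RNA-seq data set of LSK cells from bone marrow. These cells lack lineage markers, have Sca-1 and c-Kit on their surface and comprise hematopoietic stem cells and their earliest progeny. A barcode with at least 8000 unique molecular identifiers (UMIs, each standing for 1 captured RNA molecule) and under 10% mitochondrial UMIs counted as a cell. Members were chosen by 3 measured values, namely under 10 UMIs per 10000 from the granule genes Elane, Mpo, Prtn3 and Ctsg, at least 1 UMI in 3 or more of the 5 S-phase genes Ung, Dscc1, E2f1, Uhrf1 and Slfn9, and a UMI in fewer than 3 of the 5 later cell cycle genes Nusap1, Aspm, Cenpf, Psrc1 and Pimreg. There were 610 members among 10821 cells, 495 of 5363 in the miR-142 WT CML library and 115 of 5458 in the miR-142 KO CML library.

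Both libraries came from B6 mice (CD45.2) aged 8 to 10 weeks that carried SCL-tTA and BCR-ABL, a tet-off model of chronic myeloid leukemia (CML) in which the SCL promoter drives the transgene in stem and progenitor cells once tetracycline is withdrawn. BCR-ABL was induced for 2 weeks before the cells were sorted in both groups. The groups differed in miR-142, which was wild-type in miR-142 WT CML (WT) and homozygously deleted in miR-142 KO CML (KO). No mice without BCR-ABL were among the samples, and how many mice went into each library was not given. With 1 library per group there was no replicate and no test was possible, so each value describes these libraries, and each 95% interval covers counting error and not the spread between mice or between cells.

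A cell enters S phase when cyclin D with CDK4 or CDK6 releases E2F transcription factors from the retinoblastoma protein. E2F then drives the genes that license replication origins, build the replication fork and supply deoxynucleotides, and histone genes follow as new chromatin is packed. miR-142 is a microRNA of blood cells whose 2 mature strands pair through bases 2 to 8, the seed, with sites in the 3′ untranslated regions of target transcripts and lower their stability or translation.

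The mature strands are shown because transcripts with a match to the seed are compared further on. RefSeq places the 3p strand at chr11:87756903-87756925 and the 5p strand at chr11:87756867-87756887, both on the plus strand of GRCm38.p6. Capitals mark the seed, and the seeds of both strands differ.
mmu-miR-142a-3p: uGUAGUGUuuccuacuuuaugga
mmu-miR-142a-5p: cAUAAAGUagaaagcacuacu

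The promoters of replication genes are shown for the letters that E2F is known to prefer. RefSeq promoters (250 bases before to 50 bases after the start of a gene, GRCm38.p6) were searched for TTTGGCGC, TTTCGCGC, TTTCCCGC and TTTGCCGC on both strands, and none of these is the reverse complement of another. Of 32851 promoters, 744 (2.26%) held at least 1 of them, and of the 5985 promoters of genes that reached 20 CPM in the members, 307 (5.13%) did. Among origin licensing genes it was 9 of 18 promoters, among polymerase and clamp genes 9 of 30, among genes of chromatin replication 6 of 22 and among nucleotide supply genes 0 of 22. Of the 5 promoters of the S-phase genes of the rule, which belong to 4 genes, 1 held a motif, and Dscc1 had no promoter entry. For comparison, 3 of 49 promoters of the G2/M list and 2 of 75 promoters of cytosolic ribosomal protein genes held a motif. A match describes letters in a window and is no proof of binding. The examples below lie at chr1:128359797-128359826 (minus strand) for Mcm6, a subunit of the replicative helicase, chr8:75109345-75109374 (plus strand) for Mcm5, another subunit, chr4:108579416-108579445 (plus strand) for Orc1, which marks origins, chr11:98908002-98908031 (plus strand) for Cdc6, which loads the helicase, and chr17:56304117-56304146 (plus strand) for Uhrf1, 1 of the 5 genes of the rule. Orc1 did not reach 20 CPM in the members. Capitals mark each motif or its reverse complement, and in Mcm6 and Mcm5 a pair of matches overlaps.
Mcm6: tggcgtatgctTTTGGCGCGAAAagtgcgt
Mcm5: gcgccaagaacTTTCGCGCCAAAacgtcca
Orc1: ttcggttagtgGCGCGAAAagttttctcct
Cdc6: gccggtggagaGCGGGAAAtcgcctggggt
Uhrf1: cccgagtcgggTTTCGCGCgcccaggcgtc

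Over all cells the libraries differed in depth and in the share of cells with the granule programme. Median UMIs per cell were 19443 in WT and 24182 in KO. Cells under the granule limit made up 42.1% of WT and 15.6% of KO cells. Members had a median of 18147 UMIs and 4278 genes in WT and of 16169 UMIs and 3937 genes in KO, with a median mitochondrial share of 2.76% and 1.96%. Barcodes with at most 100 UMIs, which hold free RNA, carried 58.5 granule gene UMIs per 10000 in WT and 135 in KO, against 5.09 and 4.98 in the summed members. The 5 S-phase genes stood at 1.23 and 1.19 per 10000 in free RNA and at 4.72 and 4.30 in members. Since the rule used both gene sets, these values describe the choice, in which the part of free RNA was not tested. The libraries shared 4 cell barcodes, of which 0 were members.

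S-phase progenitors without the granule programme took up 9.23% of WT cells (exact interval 8.47 to 10.0) but 2.11% of KO cells (1.74 to 2.52), a share 4.38 times as large in WT. Since deeper cells show more markers, every cell was also thinned to 8000 UMIs, which left 264 members in WT (4.92%) and 49 in KO (0.898%). Over the settings of the rule that were tried, the WT share was 3.62 to 5.97 times the KO share. The size of the gap depended on the cells it was counted over. Among cells under the granule limit, 21.9% (20.2 to 23.7) were members in WT and 13.5% (11.3 to 16.01) in KO, and after thinning 12.4% and 6.08%. Among cells over the granule limit the order was the other way, with S-phase cells at 23.1% (716 of 3105) in WT and 28.7% (1323 of 4608) in KO, but after thinning at 10.2% and 8.36%. S-phase cells were therefore fewer in KO on the granule-low side at both depths, while on the granule-high side the order depended on depth.

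The marker limits cut through a graded population. Of granule-low cells with fewer than 3 G2/M markers, 198 WT and 58 KO cells just missed the rule with 2 S-phase genes, and 196 and 64 cells just met it with 3. Pcna, the sliding clamp of the fork, was at 262 CPM (counts per 1000000 UMIs of the summed cells) in WT cells with 2 S-phase genes and at 358 CPM in those with 3, and at 290 and 402 CPM in the KO cells. Rrm2, the regulated subunit of ribonucleotide reductase, was at 45.5 and 81.7 CPM in WT and at 45.6 and 90.0 CPM in KO. The cells just outside thus carried both replication transcripts at lower levels. At the granule limit, 91 WT and 18 KO members had 8 to 10 granule UMIs per 10000, and 74 and 19 cells with 10 to 12 were left out. Cells that passed both marker limits, 178 in WT and 23 in KO, were left out as well.

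The genes of the rule are given as a description, since they chose the cells. Ung, a glycosylase that removes uracil from DNA, was at 125 CPM in WT against 131 CPM in KO members and was detected in 87.7% and 88.7% of them. Uhrf1, which carries DNA methylation over to the new strand, was at 149 and 136 CPM. E2f1 was at 79.4 and 87.2 CPM and Dscc1, part of a clamp loader used in sister chromatid cohesion, at 58.8 and 49.96 CPM. Slfn9, of the Schlafen family, was the exception among the 5. It stood at 60.1 CPM and in 59.4% of WT members but at 26.5 CPM and in 31.3% of KO members (log2 KO over WT -1.18, interval -1.62 to -0.77). In the other 3 cell classes described below, which the same 5 genes also set apart, the log2 ratio ran from -1.10 to -0.94. When the rule was set without Slfn9, a choice made after seeing the data, members were 7.94% of WT and 1.92% of KO cells.

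Against resting granule-low cells of the same library (at most 1 S-phase and at most 1 G2/M marker, 844 in WT and 484 in KO), members were marked by replication genes that the rule did not name. This is a description of cells picked on their own counts. Pclaf, which binds the sliding clamp, was at 331 CPM in WT members against 14.2 CPM in WT resting cells, and at 270 against 14.2 CPM in KO. Rrm2 was at 127 against 6.94 CPM in WT and 113 against 6.18 CPM in KO. Tk1 (thymidine kinase), Clspn (a fork checkpoint adaptor), Asf1b (a histone chaperone) and the kinetochore genes Cenph, Cenpm, Cenpk and Spc24 were also among the 15 genes that stood highest over resting cells in both libraries, at log2 differences of 2.99 or more. All genes at 50 CPM or more in both libraries had a median log2 difference from resting cells of 0.21 in WT and 0.22 in KO, and 149 of 2574 were at least 2-fold higher in both.

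By role, the replication lists stood above resting cells in most of their genes. Of the licensing genes at 50 CPM, 9 of 10 were at least 2-fold over resting cells in both libraries (median log2 1.90 in WT and 2.02 in KO). It was 5 of 5 for origin firing and fork protection, 18 of 23 for polymerases and clamp, 11 of 17 for nucleotide supply, 3 of 4 for replication repair and checkpoint and 10 of 15 for chromatin replication. Genes with an E2F motif in the promoter, 290 with a value, had a median log2 over resting cells of 0.35 in WT and 0.39 in KO, against 0.10 and 0.11 in 4413 genes without one. Cytosolic ribosomal protein genes were near resting levels (0.03 and 0.12), and immediate early and NF-kB genes were lower in members (-0.84 and -0.74).

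Members also carried transcripts of later cell cycle steps. The G2/M list had a median log2 of 1.48 in WT and 1.73 in KO over resting cells, yet of -1.53 and -1.44 against granule-low cells with 3 or more G2/M and under 3 S-phase markers (G2/M cells, 486 in WT and 156 in KO). No G2/M marker was detected in 251 WT and 69 KO members, 1 in 137 and 29, and 2 in 107 and 17. Top2a, the topoisomerase that untangles sister chromatids, went up with that number in both libraries, from 125 to 241 to 365 CPM in WT and from 138 to 235 to 350 CPM in KO. Mki67, a marker of cycling cells, was at 20.1, 77.2 and 162 CPM in WT and at 33.9, 80.3 and 161 CPM in KO, and so went up alongside Top2a in both. Pcna varied less, at 349, 417 and 485 CPM in WT and 377, 485 and 463 CPM in KO.

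The histone gene Hist1h2ap was lower in KO at each of these steps. It was at 159 CPM in WT members with no G2/M marker, 863 CPM in those with 1 and 2170 CPM in those with 2, but at 82.9, 125 and 752 CPM in KO members. In granule-low cells just outside the rule, with 3 or more S-phase genes and 3 G2/M markers (77 WT and 17 KO cells), it was at 3557 and 1421 CPM while Top2a was at 512 and 575 CPM.

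**Figure D1:**
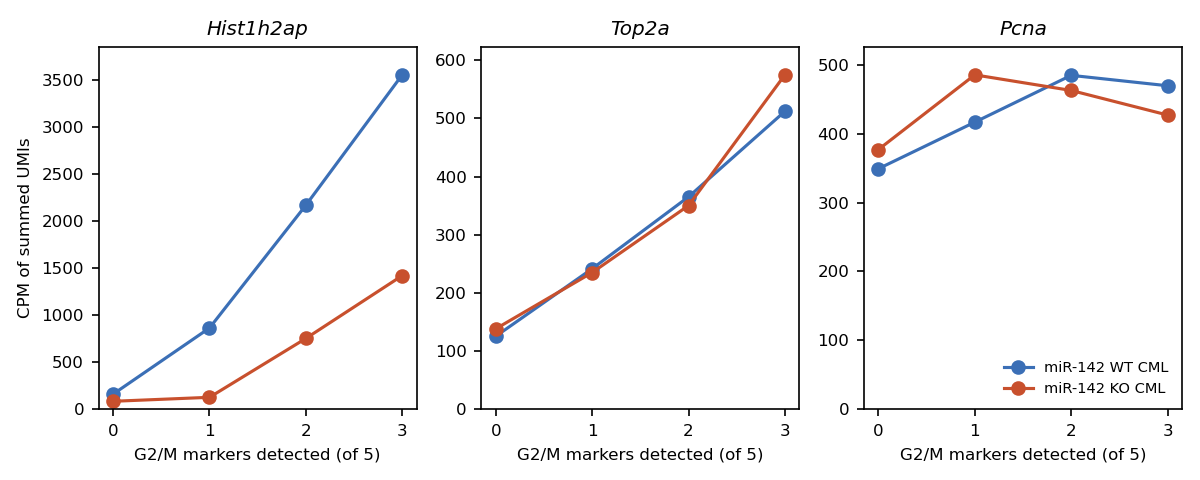
CPM of summed UMIs (y axis, from 0, a separate scale per panel) of Hist1h2ap, Top2a and Pcna in granule-low cells with 3 or more S-phase genes, by the number of the 5 G2/M markers detected (x axis), for miR-142 WT CML (blue) and miR-142 KO CML (red). Cells at 0 to 2 markers are members and those at 3 lie just outside the rule. Top2a runs from 125 to 512 CPM in WT and from 138 to 575 CPM in KO, whereas Hist1h2ap reaches 3557 CPM in WT against 1421 CPM in KO.

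The WT and KO members were then compared across genes on their summed counts, 9720082 UMIs in WT and 1961396 in KO. For single genes the log2 ratio of CPM is given, and for medians and counts over lists the log2 ratio after adding 1 CPM to both sides. Of 5843 genes at 20 CPM or more in either library, 228 (3.9%) stood 1.5-fold or more above WT in KO and 203 (3.47%) 1.5-fold or more below, and 48.9% were higher by any amount, with a median of -0.01. A gene that reached 20 CPM in 1 library alone counted as measured, so near this limit a difference toward that library was favoured. Of the 2939 genes at 50 CPM or more, 33 were at least 2-fold higher and 16 at least 2-fold lower. Most transcripts of the members thus stood within 1.5-fold of each other in WT and KO.

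The targeted gene was looked at first. Mir142hg, the host transcript of miR-142 at chr11:87755577-87757270 (plus strand, GRCm38), had 76 UMIs in 65 WT members and 0 UMIs in KO members, which against a floor of 3 counts over the group is at least 5.11-fold lower in KO. Tspoap1, which encodes a binding protein of a mitochondrial membrane protein and lies 3614 bases downstream of Mir142 on the same strand (chr11:87760541-87785928), was found in 7 WT members with 7 UMIs and in 108 of 115 KO members with 494 UMIs (0.720 against 252 CPM, log2 8.45, interval 7.40 to 9.77).

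Of the genes with the largest ratios toward KO at 50 CPM or more, 8 were spread over many cells, Tspoap1 among them. Hes1, a repressor downstream of Notch, was at 8.23 CPM in WT against 52.5 CPM in KO (log2 2.67, interval 2.24 to 3.11). Mt1, a metallothionein that binds zinc and copper, was at 113 and 447 CPM (1.98, 1.85 to 2.11) and was found in 56.6% of WT and 90.4% of KO members. Gna11, the alpha subunit of a Gq-type G protein, was at 17.3 and 70.4 CPM (2.03, 1.69 to 2.36), and Pdcd4, an inhibitor of translation initiation, at 149 and 427 CPM (1.52, 1.40 to 1.64). Rgs10, which shuts off G protein signals, was at 43.7 and 132 CPM, the poly(A) polymerase gene Tent5a at 25.4 and 74.4 CPM, and the beta globin Hbb-bt at 97.0 and 382 CPM. Hbb-bt has near-identical globin copies, so its counts may be split among them.

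The other 4 of the 12 highest rested to a large part on 1 cell. Pf4, platelet factor 4, was at 63.8 CPM in WT against 448 CPM in KO, but a single KO cell held 48.4% of its UMIs and a single WT cell 32.6%. Its shares of positive members were 31.3% in WT and 32.2% in KO, and its log2 ratio of 2.81 became 0.25 without members holding 3 or more megakaryocyte, erythroid, innate lymphoid, basophil and mast cell or B and plasma cell markers, an alternative chosen after seeing the data. Pf4 is itself on the megakaryocyte list, so this alternative removed cells partly by their Pf4, and the value is a description only. Car1, the carbonic anhydrase of erythroid progenitors, was found in 5 WT and 4 KO members, and 1 cell held 68.4% and 51.5% of its UMIs. For Il1rl1, the receptor of interleukin-33, that cell held 30.6% in WT and 26.1% in KO, and for Gm15915 32.4% in KO.

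At the other end, the 3 lowest were antibody genes whose WT UMIs lay mostly in a single cell each. Igkc was at 2180 CPM in WT against 4.08 CPM in KO with 97.3% of its WT UMIs in a single cell. Ighm was at 496 and 9.18 CPM with 91.6% in a single cell, and Jchain had 677 and 0 UMIs (at least 45.5-fold lower against a floor of 3 counts) with 92.2% in a single cell. The B and plasma cell genes were also in the free RNA, at 60.04 UMIs per 10000 in WT and 1.19 in KO, against 22.8 and 0.418 in members. The protease inhibitor Slpi (71.0 against 7.65 CPM) had 87.8% of its WT UMIs in 1 cell, and the mast cell tryptase Tpsb2 (226 against 31.1 CPM) had 95.1% of its KO UMIs in 1 cell.

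Of the rest of the 12 lowest, 6 that are described here were spread over cells. Hist1h2ap was at 845 CPM in WT against 206 CPM in KO (log2 -2.04, interval -2.18 to -1.89). Gimap6, a GTPase of lymphocytes, was at 60.5 and 21.9 CPM, Gng11, a G protein gamma subunit, at 68.7 and 26.002 CPM, and Gcnt2, which branches glycan chains, at 78.6 and 34.7 CPM. The interferon-inducible genes Ifi203 and Epsti1 were at 123 and 69.2 CPM in WT and at 56.1 and 31.6 CPM in KO.

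**Figure D2:**
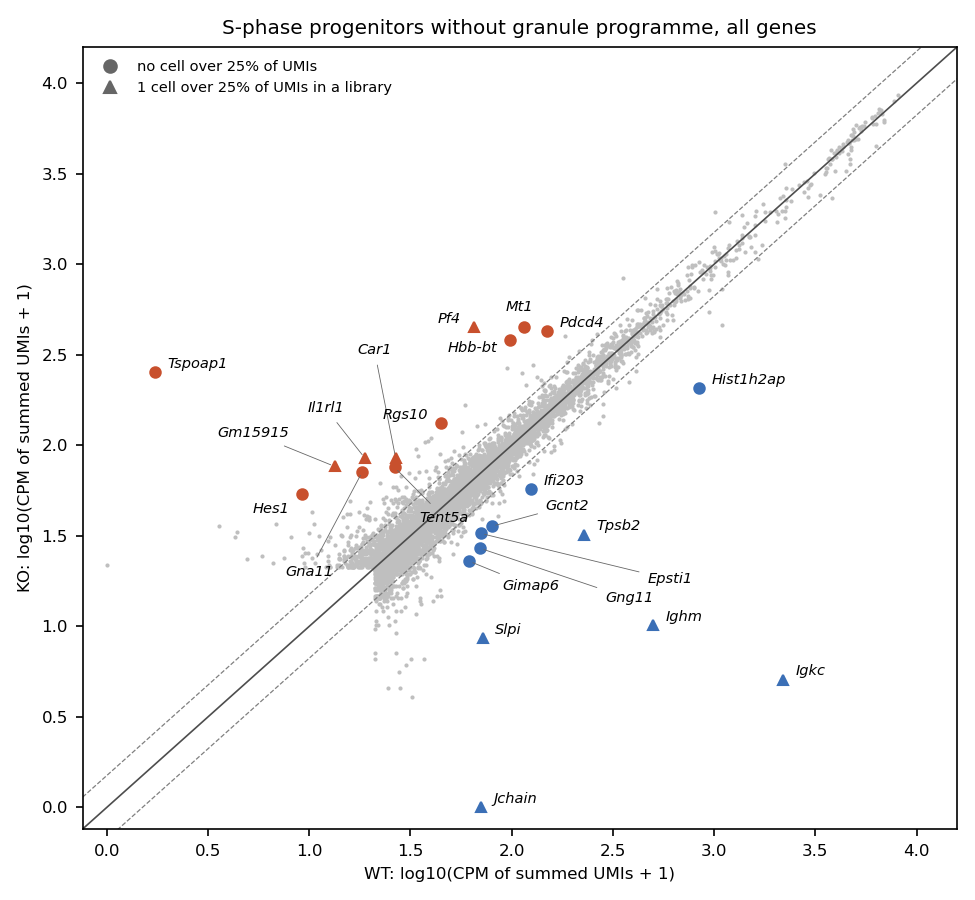
Level of each gene at 20 CPM or more in the summed S-phase progenitors of miR-142 WT CML (x axis) and miR-142 KO CML (y axis), both as log10 of CPM plus 1. The solid line marks equal levels and the dashed lines 1.5-fold, the named genes among the 12 highest are red and those among the 12 lowest blue, and triangles mark genes with over 25% of their UMIs in 1 cell of a library. Most points lie between the dashed lines, and Tspoap1 lies far above them at 0.720 against 252 CPM.

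Genes that start and run replication were close to even between WT and KO members. Among the 21 of 27 measured regulators of the G1 to S step, 3 passed 1.5-fold toward KO and 0 toward WT. Of all measured genes, 3.9% and 3.47% did so. The 3 regulators were Ccnd1 (cyclin D1), at 39.0 CPM in WT against 108 CPM in KO (log2 1.47, interval 1.22 to 1.72), the CDK inhibitor Cdkn1a at 32.3 and 64.7 CPM (1.003, 0.69 to 1.30) and the retinoblastoma gene Rb1 at 11.3 and 21.9 CPM (0.95, 0.41 to 1.47). Rb1 reached 20 CPM in KO only. Ccnd1 was found in 40.4% of WT and 74.8% of KO members, and the cells with most of it held 2.64% and 3.77% of its UMIs. The partner kinases did not follow, with Cdk4 at 533 and 534 CPM and Cdk6 at 512 and 510 CPM.

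Of the 14 licensing genes measured of 16 listed, which encode the origin recognition complex, the loaders and the MCM helicase, 0 passed 1.5-fold in either direction and 2 were higher in KO by any amount (median log2 -0.13, range -0.43 to 0.05). Higher by any amount were 48.9% of all measured genes. Mcm6 was at 347 CPM in WT against 305 CPM in KO, Mcm3 at 299 and 226 CPM (-0.40, -0.55 to -0.25) and Mcm4 at 142 and 110 CPM, whereas Mcm7 was at 292 and 295 CPM and the licensing inhibitor Gmnn at 218 and 211 CPM. Subunits of a single ring thus had unequal ratios. The summed licensing genes had a log2 ratio of -0.17 (-0.22 to -0.12), and the list's median was also negative in G2/M cells (-0.25), in resting cells (-0.39) and in S-phase cells with the granule programme (-0.23).

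Origin firing and fork protection had a median of 0.00 over 12 of 17 genes, with 0 past 1.5-fold. Tipin and Clspn, which stabilise stalled forks, were at 269 and 80.2 CPM in WT and at 295 and 79.0 CPM in KO. Of 29 polymerase and clamp genes, 1 was at least 1.5-fold lower in KO and 0 higher (median -0.07). That gene was Rfc1, the large subunit of the clamp loader, at 143 and 91.8 CPM (log2 -0.65, interval -0.88 to -0.42), while Rfc2 in the same complex was at 348 and 356 CPM and Pcna itself at 401 and 420 CPM (0.07, -0.04 to 0.17). Lig1, which seals the lagging strand, was at 203 and 156 CPM.

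Nucleotide supply showed 0 of 21 genes past 1.5-fold (median -0.05), with the deoxyuridine triphosphatase Dut at 685 CPM in WT against 673 CPM in KO, the ribonucleotide reductase subunit Rrm1 at 145 and 113 CPM and Tk1 at 96.1 and 73.4 CPM. In replication repair and checkpoint, 1 of 13 measured genes (of 20) was at least 1.5-fold lower in KO, the recombination gene Brca2 at 67.6 and 44.4 CPM (log2 -0.61, interval -0.95 to -0.28). In chromatin replication, 17 of 17 genes were lower in KO, but by small amounts (median -0.14, range -0.42 to -0.00) and with 0 past 1.5-fold. By comparison, 48.9% of all measured genes were higher in KO by any amount. Ssrp1, of a chaperone that moves histones ahead of the fork, was at 246 and 184 CPM, Slbp, which binds the stem-loop of histone mRNAs, at 235 and 195 CPM, and the histone chaperone Nasp at 243 and 242 CPM.

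The clustered histone genes stood apart from the rest of the replication lists. Of 67 listed, 10 reached 20 CPM, of which 6 were at least 1.5-fold lower in KO and 0 higher (median log2 -0.67, against -0.01 over all genes). Besides Hist1h2ap, these included Hist1h1d at 34.2 CPM in WT against 12.7 CPM in KO, Hist1h2ae at 283 and 145 CPM and Hist1h1b at 173 and 107 CPM, whereas the linker histone Hist1h1e was at 71.0 and 53.5 CPM. Summed over the 67 genes, histones were at 1805 CPM in WT against 830 CPM in KO (log2 -1.12, -1.20 to -1.05). In G2/M cells, which expressed these genes above the members, the list's median was -0.09. It was -0.64 in resting cells and -0.18 in S-phase cells with the granule programme. The summed histones were lower in KO in these classes too, at 6778 CPM in WT against 4219 CPM in KO G2/M cells. They were at 834 and 587 CPM in resting cells and at 2477 and 1590 CPM in S-phase cells with the granule programme. The list's median in the members depended on the rule, with -1.55 when they were chosen after thinning and -0.08 at a granule limit of 20 per 10000, while Hist1h2ap itself stayed between -2.89 and -1.46 in these settings. Most replication-dependent histone mRNAs end in a stem-loop and not in the poly(A) tail that the 3′ kit captures, and the family has near-identical copies, so these counts cover an unknown part of histone RNA. The share of members without a G2/M marker was 251 of 495 in WT and 69 of 115 in KO, and its part in the histone difference was not tested.

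Of the G2/M list, 31 of 52 genes were measured, with 1 at least 1.5-fold higher in KO (Ckap2l, a spindle protein, 14.6 and 27.0 CPM) and 3 lower, namely Ccnb2 (cyclin B2, 23.1 and 11.7 CPM), the kinetochore gene Ndc80 (28.1 and 15.3 CPM) and Hjurp (62.4 and 40.8 CPM), which loads centromeric histone. The median was -0.04.

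**Figure D3:**
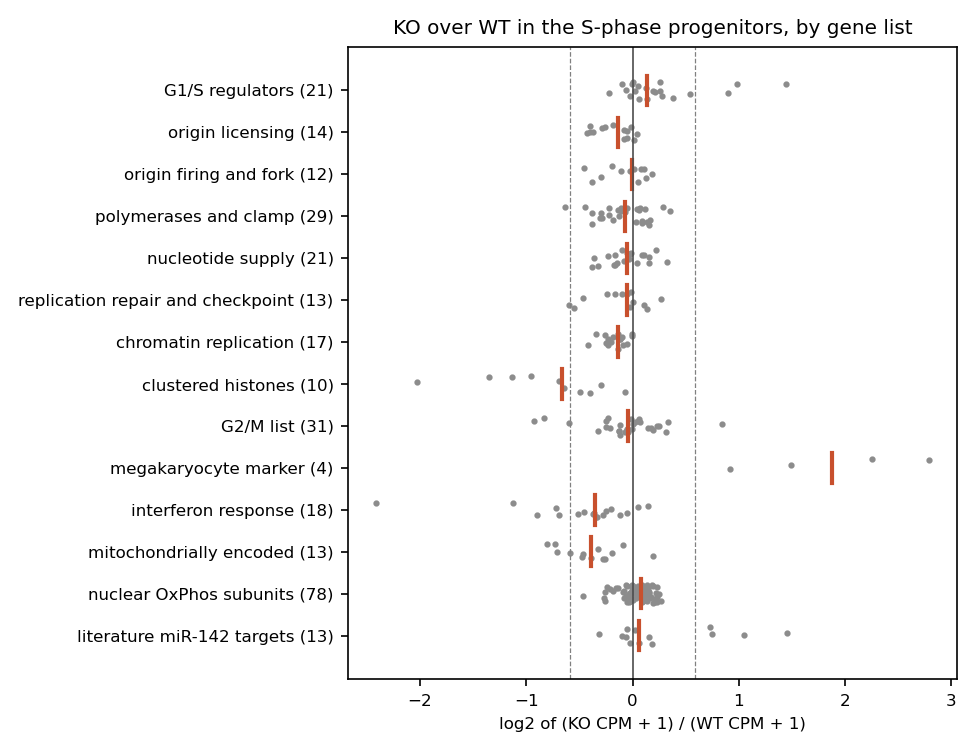
Log2 ratio of KO over WT (x axis, after adding 1 CPM) in the S-phase progenitors for each measured gene (grey points) of 14 gene lists, with the number of genes in parentheses, the median as a red bar and 1.5-fold as dashed lines. The replication lists sit around 0, clustered histones have a median of -0.67 and megakaryocyte markers a median of 1.88.

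The members differed among themselves in lineage genes, and the mixture was unlike in WT and KO. A cell was counted for a lineage when 3 or more of its markers were detected, and could be counted for several. Markers of hematopoietic stem cells (HSC) were found in 161 of 495 WT members (32.5%, exact interval 28.4 to 36.8) and in 15 of 115 KO members (13.04%, 7.49 to 20.6). Megakaryocyte markers went the other way, with 94 WT members (19.0%, 15.6 to 22.7) and 39 KO members (33.9%, 25.3 to 43.3). After thinning to 8000 UMIs the order remained, at 12.7% and 4.35% for HSC and 7.68% and 23.5% for megakaryocyte markers. These counting intervals did not overlap, but they leave out the spread between mice.

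The other lineages were closer or rare. Lymphoid-primed markers were found in 21.0% of WT and 18.3% of KO members, and erythroid markers in 7.68% and 12.2%. Innate lymphoid markers were in 1 WT member (0.202%) and 7 KO members (6.09%), B and plasma cell markers in 16 (3.23%) and 0 (exact upper limit 3.16%), and monocyte markers in 10 and 1. No member of either library held 3 late neutrophil markers, which allows a share of up to 0.606% in WT and 2.61% in KO by 3 counts (exact upper limits 0.742% and 3.16%), while 2.51% of WT and 20.3% of KO S-phase cells with the granule programme did. None of the lists was met by 163 WT and 42 KO members, and several lists at once by 88 and 22.

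**Figure D4:**
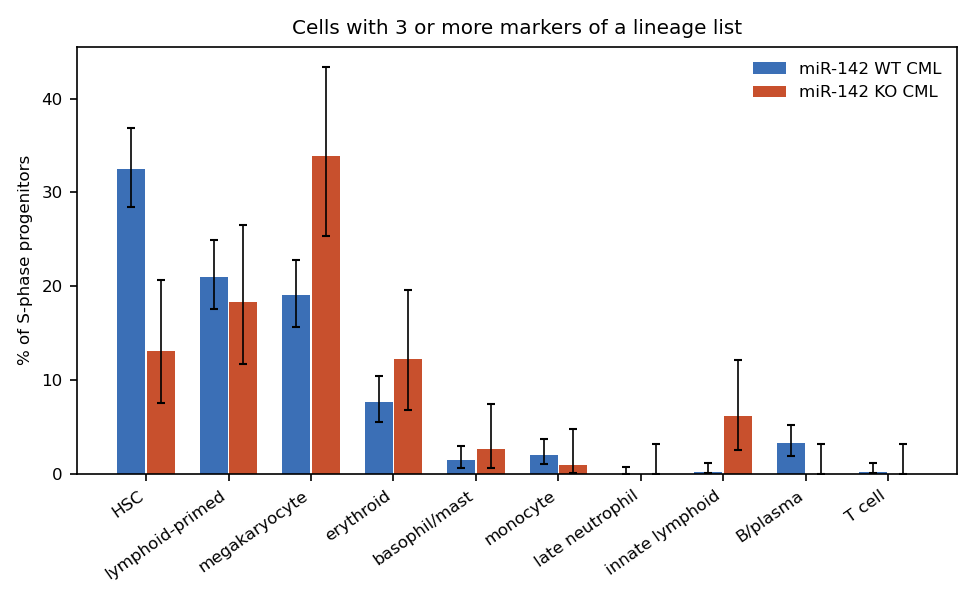
Share of S-phase progenitors (y axis, percent, from 0) with 3 or more detected markers of each lineage list (x axis) in miR-142 WT CML (blue, 495 cells) and miR-142 KO CML (red, 115 cells), with exact 95% binomial intervals for counting error. HSC markers are at 32.5% and 13.04% and megakaryocyte markers at 19.0% and 33.9%.

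The lineage genes were also read one by one. All 4 measured megakaryocyte markers were at least 1.5-fold higher in KO (median log2 1.88), against 3.9% of all measured genes. Besides Pf4, these were Itga2b, the integrin of platelets that early progenitors also carry, at 93.9 CPM in WT against 267 CPM in KO (1.51, 1.35 to 1.66), and the platelet glycoprotein genes Gp9 at 36.9 and 70.9 CPM and Gp1bb at 3.91 and 22.4 CPM. Gp1bb reached 20 CPM in KO only. Itga2b did not rest on single cells, with UMIs in 63.6% of WT and 79.1% of KO members. Free RNA held these markers at 0.911 UMIs per 10000 in WT and 0.841 in KO, against 2.02 and 8.20 in members. The erythroid factor Gata1 was at 18.6 and 39.3 CPM (1.08, 0.67 to 1.47).

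Among HSC markers, Hlf, a transcription factor of stem cells, was at 84.3 CPM in WT against 39.8 CPM in KO (-1.08, -1.44 to -0.75), in 65.3% and 34.8% of members. Mecom was at 33.8 and 22.4 CPM, but Pdzk1ip1 was higher in KO at 35.2 and 54.6 CPM, so the list did not move as one. Hoxa9 and Hoxa7, homeobox genes of stem and progenitor cells, were at 56.3 and 41.8 CPM in WT and at 32.1 and 23.5 CPM in KO. Of 18 measured stem cell regulators, 4 were at least 1.5-fold lower in KO and 1, the Polycomb gene Bmi1, was higher (13.9 and 23.5 CPM). Bmi1 reached 20 CPM in KO only. Over all measured genes, 3.47% were lower and 3.9% higher by that much. Of the lymphoid genes, Dntt, which adds bases to antigen receptor joints, was at 85.2 and 46.9 CPM with 41.3% of KO UMIs in 1 cell, and Flt3 was at 42.8 and 31.1 CPM.

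Transcripts of Sca-1 and c-Kit, by which the cells were sorted, were present in the members of both libraries. Ly6a, which encodes Sca-1, was at 126 CPM in WT against 275 CPM in KO (log2 1.13, interval 0.98 to 1.28), yet its shares of positive members were 77.8% and 73.9% and its medians over single cells 96.3 and 115 CPM, with the upper quartile at 185 and 304 CPM. The difference thus lay in the upper part of the cells. It shrank to a log2 of 0.50 when members were chosen after thinning and to 0.20 at a granule limit of 5 per 10000. Kit, which encodes c-Kit, was at 94.2 and 70.9 CPM. Of surface markers outside the LSK sort, Cd34 was at 255 and 185 CPM. Cd48, a surface protein that is low on stem cells, was at 283 and 195 CPM.

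Because the lineage mixture was unlike, the largest differences were also read in members of 1 kind. In members that met none of the lineage lists (163 in WT and 42 in KO), Hist1h2ap was at 786 CPM in WT against 128 CPM in KO (log2 -2.62), Ccnd1 at 30.8 and 116 CPM (1.92), Mt1 had a log2 of 2.14 and Tspoap1 of 8.16, while Ly6a was at 0.66. In members that met only the megakaryocyte list, Hist1h2ap was at -1.93, Ccnd1 at 1.85 and Mt1 at 1.70, but Ly6a at -0.18 (-0.90 to 0.51). Itga2b was at 1.30 (0.98 to 1.61) in members that met none of the lists and at 1.33 (1.03 to 1.63) in those with megakaryocyte markers only. Hlf was at -1.01 (-1.62 to -0.45) and -1.09 (-2.85 to 0.36). Itga2b and Hlf are on the lists that set these kinds, so their values within them are a description only. In members that met only the lymphoid-primed list (69 in WT and 13 in KO), Itga2b was at -0.80 (-3.92 to 1.19) and Hlf at -0.09 (-1.09 to 0.78). There Hist1h2ap was at -1.44, Ccnd1 at 0.89, Mt1 at 1.56 and Ly6a at 1.30. The differences in Hist1h2ap, Ccnd1 and Mt1 were therefore present within each of these kinds of member. That in Ly6a was not seen among members with megakaryocyte markers only.

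Transcripts with a miR-142-3p seed match were then read in the members. This set was formed after the gene lists. Among 5729 genes at 20 CPM with an annotated 3′ untranslated region, 392 held ACACTAC, the complement of the 3p seed, and of these 34 (8.67%) passed 1.5-fold toward KO and 11 (2.81%) toward WT. Of the 5337 genes without it, 184 (3.45%) were higher and 173 (3.24%) lower. The medians were nearly the same, 0.02 and -0.01, so the difference lay in few genes. Of the 26 genes with 2 or more 3p sites, 6 were at least 1.5-fold higher and 0 lower. The site-bearing regions were longer, with a median of 2560 bases against 1091, and the part of length was not tested. For the 5p match ACTTTAT, 41 of 904 genes with it (4.54%) and 177 of 4825 without it (3.67%) were higher.

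The sites of 4 named genes are printed with their flanks as examples with 1 site or several and with values that run both ways. Capitals mark ACACTAC, and positions are GRCm38. Gna11, with 3 sites, has its first at chr10:81530224-81530252 and its second at chr10:81529804-81529832 (minus strand). Cfl2, which encodes the actin-severing protein cofilin 2, has its sites at chr12:54860453-54860481 and chr12:54860413-54860441 (minus strand). Wasl, an activator of actin branching, has 1 at chr6:24616226-24616254 (minus strand), and the RNA-binding protein gene Msi2 has 1 at chr11:88340222-88340250 (minus strand).
Gna11 site 1: agccaggtgacACACTACagggtctagtg
Gna11 site 2: gctgctcatatACACTACagtgtctatct
Cfl2 site 1: ccgatgagtgtACACTACtgtataattta
Cfl2 site 2: tgagtcttgaaACACTACagatattttga
Wasl site 1: tgaaatactaaACACTACttcctgtctat
Msi2 site 1: cctgggcacagACACTACacaaggcaatg

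Gna11 was at 17.3 CPM in WT against 70.4 CPM in KO, as given above. Cfl2 was at 37.4 and 105 CPM (log2 1.48, interval 1.23 to 1.73) and Wasl at 18.004 and 38.2 CPM (1.09, 0.68 to 1.48). Msi2, with a site of the same letters, went the other way, at 174 and 101 CPM (-0.78, -1.001 to -0.57). Of 13 measured genes of 18 listed as miR-142 targets from general knowledge, 4 passed 1.5-fold toward KO and 0 toward WT (median 0.06), namely Cfl2, Wasl, the actin regulator Twf1 at 31.7 and 53.0 CPM and the TGF-beta receptor gene Tgfbr1 at 12.96 and 22.4 CPM. Over all measured genes, 3.9% passed 1.5-fold toward KO and 3.47% toward WT. Wasl and Tgfbr1 reached 20 CPM in KO only, so the limit itself favoured a count toward KO. The targets Rhoa, at 359 and 354 CPM, and Hmgb1, at 1484 and 1430 CPM, were near even, so the listed targets did not move together.

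Metabolic and stress genes differed in part. The 13 mitochondrially encoded transcripts had a median log2 of -0.39 with 4 at least 1.5-fold lower in KO and 0 higher. mt-Nd2 was at 948 and 543 CPM, mt-Co3 at 3819 and 2330 CPM and mt-Atp6 at 6305 and 4521 CPM. The nuclear subunits of oxidative phosphorylation did not share this lower level, with 0 of 78 past 1.5-fold in either direction and a median of 0.08. Of them, 51 were higher in KO by any amount, against 48.9% of all measured genes. Their median was 0.16 in G2/M cells, 0.09 in resting cells and 0.15 in S-phase cells with the granule programme. Fatty acid oxidation (0 of 23 genes past 1.5-fold, median -0.03), glycolysis (0 of 15, -0.09) and mitochondrial dynamics (0 of 7, 0.08) were near even. Of the genes that the study followed, Cpt1a, the gatekeeper of mitochondrial fatty acid uptake, was at 25.5 CPM in WT against 32.1 CPM in KO (0.33, -0.09 to 0.74), the kinase gene Prkca at 18.6 and 27.0 CPM (0.54, 0.07 to 0.99) and the fusion gene Mfn1 at 8.33 and 11.7 CPM (0.49, -0.24 to 1.18). The intervals of Cpt1a and Mfn1 held 0, so a difference was not detectable at this depth. Msi2, which the study also followed, was lower in KO members, at 174 CPM in WT against 101 CPM in KO.

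Of 18 measured interferon response genes of 42 listed, 5 were at least 1.5-fold lower in KO and 0 higher (median -0.36). Over all measured genes, 3.47% were lower and 3.9% higher by that much. Rtp4 was at 23.3 and 3.57 CPM, Mndal at 90.9 and 48.4 CPM and Isg20 at 26.6 and 15.8 CPM, while Ifitm1, at 2061 and 1905 CPM, and Ifitm3, at 913 and 882 CPM, were close to even. The list's median was also negative in G2/M cells (-0.40), resting cells (-0.44) and S-phase cells with the granule programme (-0.43). NF-kB and immediate early genes had 2 of 21 at least 1.5-fold higher (Klf2 at 27.6 and 51.0 CPM and Btg1 at 46.6 and 74.95 CPM) and 18 higher by any amount, with Fos at 457 and 653 CPM. For all measured genes these shares were 3.9% and 48.9%.

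Set against the 3 most like cell classes of the same libraries, most of the largest differences had the same direction elsewhere. Of the 12 highest genes 9, and of the 12 lowest 10 (Igkc, Ighm and Jchain among them), had the same sign in G2/M cells, resting cells and S-phase cells with the granule programme (716 in WT and 1323 in KO), as in the members. Hes1 had log2 ratios of 2.23, 2.33 and 1.89 in these classes, Gna11 of 1.69, 1.92 and 1.80, Mt1 of 2.28, 2.03 and 1.33, and Gcnt2 of -0.88, -1.39 and -1.54. Hist1h2ap was at -1.45, -1.46 and -1.42 and thus further from 0 in the members, at -2.04. The members' log2 ratio of this gene less that of G2/M cells was -0.59 ± 0.15 (combined half-widths of the counting intervals).

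Several genes had the members' ratio in the granule-low classes but not in S-phase cells with the granule programme. Ccnd1 was at 0.97 in G2/M cells and 1.21 in resting cells, but at -0.78 in S-phase cells with the granule programme, against 1.47 in the members, which leaves a difference of 2.25 ± 0.28 between the members and S-phase cells with the granule programme. Itga2b was at 1.49, 1.89 and 0.15, Rgs10 at 1.74, 1.88 and -0.03, and Rap1b, a small GTPase of platelets that was at 183 CPM in WT against 402 CPM in KO members (1.13), at 0.99, 0.87 and -0.02. Ly6a, in contrast, was at 0.48, 1.90 and 0.54. With 1 library per group none of these differences between classes was tested.

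**Figure D5:**
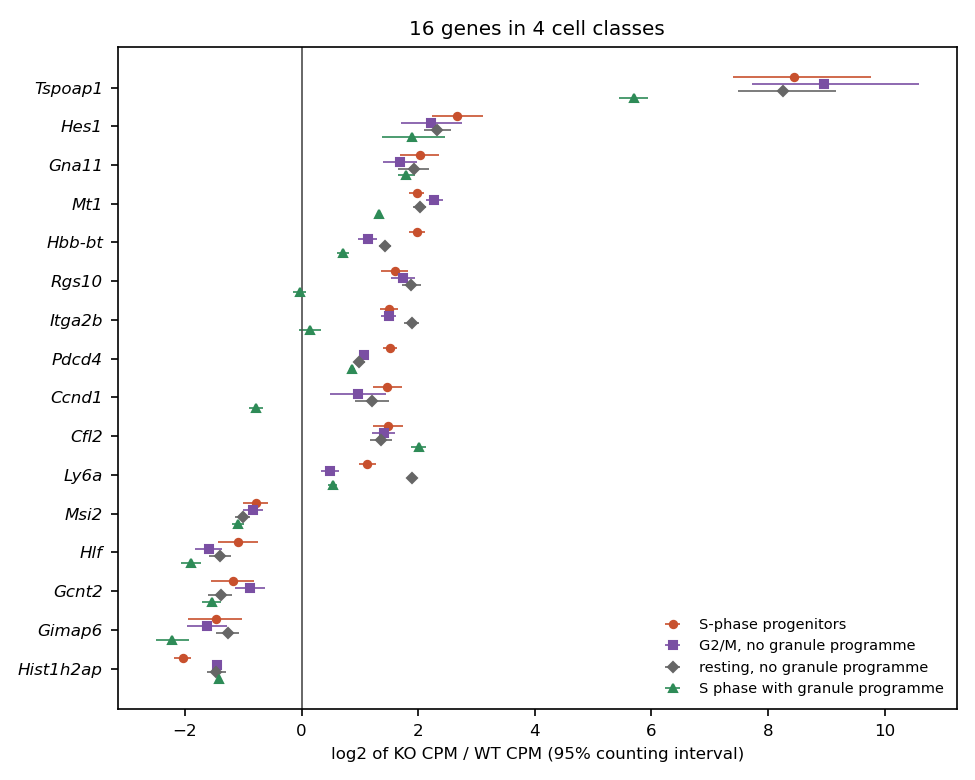
Log2 ratio of KO over WT CPM (x axis) with 95% counting intervals (lines) for 16 genes in the S-phase progenitors (red circles), G2/M cells (purple squares) and resting cells (grey diamonds) without the granule programme, and S-phase cells with it (green triangles). Ccnd1 is at 1.47 in the progenitors and at -0.78 in S-phase cells with the granule programme, and Gcnt2 lies between -1.54 and -0.88 in all 4 classes.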

How the data were processed

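The deposited values were raw UMI counts per gene and barcode, unfiltered for cells, which the authors made with Cell Ranger. Per the submitters' processing notes this was version 6.1.2 on mm10, while the file headers name version 4. The matrices held 170881210 UMIs in 1957898 barcodes for miR-142 WT CML and 187721815 UMIs in 2055088 barcodes for miR-142 KO CML. Labels state about 8000 captured cells per sample, and the study discarded cells at 300 UMIs or below, where the rule used here starts at 8000 UMIs, which left 5363 and 5458 cells. Sequences and positions came from RefSeq tables (GRCm38.p6) and the GRCm38 annotation.

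Members and lists were chosen with earlier results of these data known. Counts of the cells of a class were summed per library and scaled to counts per 1000000 (CPM). Ratios carry exact conditional binomial 95% intervals and shares Clopper-Pearson intervals, both for counting error only. No p-value was computed, since there was 1 library per group and cells are not replicates. Genes needed 20 CPM in either library, and lists used a pseudocount of 1 CPM. Thinning drew 8000 UMIs per cell, so that no cell was left out. Doublets were kept in the members. Scrublet was run for an alternative, but its own threshold marked 0.0373% of WT and 0% of KO cells and did not work, so the top scores at expected rates of 4.29% and 4.37% were left out instead.

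Named were the genes of the rule, the surface markers, the knockout check and the genes the study followed, up to 4 genes per list by ratio and up to 4 by level at 20 CPM, the 12 highest and 12 lowest ratios at 50 CPM, the 6 largest differences in each direction from each comparison class, and the 15 genes highest over resting cells. Mcm5, Mki67, Orc1 and Cdc6 were named in addition, after their values were seen. Some genes that met these criteria are not reported here. The alternatives changed the marker, granule, mitochondrial, UMI and CPM limits, the depth, the pseudocount, doublets, lineage shares, single cells and Slfn9. The ratio code was checked on simulated counts. Python 3.11.15, numpy 2.4.6, scipy 1.17.1, pandas 2.3.3, scanpy 1.11.5 and matplotlib 3.10.9 were used.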

Additional observations from a re-analysis of the deposited data

Results flagged for a closer look

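Among named genes at 50 CPM or more in both classes, 4 outside the rule were past 1.5-fold in one direction in the S-phase progenitors and past 1.5-fold in the opposite direction in another class. With 1 library per group the difference was not tested. Cpa3, the carboxypeptidase of mast cells, was at -0.67 in the members but at 1.87 in G2/M cells and 1.80 in resting cells, differences of -2.54 and -2.47, and 1 cell held 32.4% of its WT and 62.4% of its KO UMIs in the members. Tpsb2 was at -2.86 against 1.995 and 0.75, differences of -4.86 and -3.61, with 36.8% and 95.1% in 1 cell. Akr1c13, an aldo-keto reductase, was at -0.93 against 1.32 in resting cells, a difference of -2.25, with 4.31% and 35.2% in 1 cell. Slpi was at -3.21 against 1.10 in S-phase cells with the granule programme, a difference of -4.32, with 87.8% and 26.7% in 1 cell. In each of these genes a single member held over 30% of the UMIs of a library.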

How the results depend on the processing

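No paired analysis was possible because there was 1 library per group, and for the same reason no replicate could be left out. The WT share of 9.23% became 4.92% after thinning, 12.9% with 2 and 5.58% with 4 S-phase genes, 4.81% and 13.6% with granule limits of 5 and 20, 7.23% with under 2 G2/M markers, 11.04% from 12000 UMIs and 7.94% without Slfn9. The KO share of 2.11% became 0.898%, 3.17%, 0.934%, 1.15% and 3.76% in the first 5 of these. The 228 genes at least 1.5-fold higher became 146 at a granule limit of 20, 84 at a minimum of 50 CPM and 1271 with no minimum. The 203 lower became 463 after thinning, 364 with 4 S-phase genes, 377 and 106 at granule limits of 5 and 20, 63 at 50 CPM and 1736 with no minimum, where genes of few UMIs enter. Of 72 named genes past 1.5-fold, 64 kept their direction and 38 stayed past 1.5-fold in all 17 alternatives. Direction turned for Ckap2l (-0.14), Calca (-0.16), Id2 (-1.87) and Il7r (-0.72) after thinning, Calca (-2.42), Id2 (-1.49) and Il7r (-1.25) at a granule limit of 5, Id2 (-0.64) with under 2 G2/M markers, Slpi (0.30) with 4 S-phase genes and Cpa3 (0.16) at a granule limit of 20. With lineage shares made equal it turned for Cpa3 (1.90) and Id2 (-0.37). Without members holding 3 or more markers of the megakaryocyte, erythroid, innate lymphoid, basophil and mast cell or B and plasma cell list, chosen after seeing the data, it turned for Car1 (-0.19), Cpa3 (1.62), Btg1 (-0.023) and Il7r (-2.76), while Pf4 was at 0.25 and Gm15915 at 0.53. Car1, Cpa3, Il7r and Pf4 are themselves on these lists, so their values in this setting are a description only. The cause was not tested. The histone median ran from -1.55 after thinning to -0.08 at a granule limit of 20, whereas licensing stayed between -0.20 and -0.10. The depth limits genes of few UMIs, since 1 UMI was worth more CPM in the 115 KO members than in the 495 WT members.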

Other observations

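Shallow barcodes were looked at apart from the members. Of barcodes with 4000 to 8000 UMIs, 10 of 577 in WT met the rest of the rule (1.73%, exact interval 0.834 to 3.16) and 0 of 833 in KO, which allows a share of up to 0.360% by 3 counts (exact upper limit 0.442%). Xist was at 1505 CPM in WT against 1407 CPM in KO members, and the genes Ddx3y, Eif2s3y, Kdm5d and Uty of the mouse Y chromosome had 0 UMIs in both.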
